A study of Homo sapiens with 6 samples.

Results

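RNase P and RNase MRP are related RNA-protein enzymes, each built around a catalytic RNA. RNase P cuts the 5′ leader off precursor tRNAs, and its RNA is RPPH1. RNase MRP cleaves the precursor of ribosomal RNA within the first internal transcribed spacer (ITS1), and its RNA is RMRP. Most protein subunits are shared between the particles, and their mRNAs are made by RNA polymerase II, whereas RMRP and RPPH1 are made by RNA polymerase III from external, type 3 promoters. Here 10 genes were followed, the 2 catalytic RNAs RMRP and RPPH1 and the mRNAs of 8 protein subunits (POP1, POP4, POP5, POP7, RPP14, RPP30, RPP38 and RPP40), out of 23013 genes in the deposited table. They were picked by gene symbol, in view of their difference between ORC1 immunoprecipitate and input, so that difference is given as a description and not as a test of the group.

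The libraries came from native RNA immunoprecipitation and sequencing (RIP-seq) of nuclei of HCT116, a human colorectal cancer line grown without treatment or synchronization. ORC1 is a subunit of the origin recognition complex, which marks the sites where DNA replication starts. There were 3 inputs (nuclear lysate RNA, no antibody) and 3 ORC1 IPs (endogenous ORC1, anti-ORC1 antibody), numbered as RIP replicates 1 to 3. Log2 IP/input values of a replicate set the IP beside the input with the same number, as labelled. The library titles also give the input and IP of a replicate a shared number. These libraries did not deviate together in replicates 1 and 2, but 3 libraries per group cannot settle whether they are matched. The question posed is which nuclear RNAs were recovered with ORC1 relative to their level in the input. No control IgG library was analysed here, so the background of the IP was not measured for any gene. The paper reports that its control IgG brought down no detectable RNA. The methods of the study call the anti-ORC1 experiments triplicate. The labels do not say that the 3 came from separate cultures, so p-values and errors speak only of these samples. The limma fit with its intensity trend also drew each gene's error toward that of genes at a similar level. As in any bulk RNA, an input level does not tell fewer cells containing an RNA from less of it per cell.

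Reads on genes ranged from 13703033 to 17248924 in the inputs and from 25134156 to 36008733 in the IPs. The first principal component (45.4% of the variance) separated inputs from IPs, and the second (29.7%) set ORC1 IP replicate 2 apart, at 98.9 against −50.6 and −18.6 for the other IPs. Values without that library are therefore given beside the results whose call or direction it changed. All 6 epithelial markers fixed for HCT116 were in the table, with a summed normalized count of 47783 to 138542 in inputs and 16797 to 145253 in IPs. Of the 6 markers of other cell types, PTPRC, COL1A2, PECAM1 and HBB were not listed, ALB reached at most 6.97, and COL1A1 made up nearly all of a sum of 161 to 300 in inputs and 432 to 788 in IPs. COL1A1 had a log2 fold change of 1.27 ± 0.39 (limma adjusted p = 0.0854), and 1.37 ± 0.40 when ORC1 IP replicate 2 was left out (0.0276). The part of that difference in the results was not tested. The median of the epithelial markers was −0.51 and turned to 0.32 without the same library.

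The catalytic RNAs carry the largest values in this set, so their sequences are shown, read from the reference genome (GRCh38, GENCODE v44 annotation, minus strand, 5′ to 3′). RMRP lies at chr9:35657754-35658017 and is 264 bases long. RPPH1 is 333 bases long, and its first 300 bases, chr14:20343108-20343407, are printed. Both RNAs are single-exon ribozyme genes. Capitals mark the word GGGAANGTC, which was noticed after the sequences were compared and occurs once in each RNA, at position 67 of RMRP and position 69 of RPPH1.
RMRP: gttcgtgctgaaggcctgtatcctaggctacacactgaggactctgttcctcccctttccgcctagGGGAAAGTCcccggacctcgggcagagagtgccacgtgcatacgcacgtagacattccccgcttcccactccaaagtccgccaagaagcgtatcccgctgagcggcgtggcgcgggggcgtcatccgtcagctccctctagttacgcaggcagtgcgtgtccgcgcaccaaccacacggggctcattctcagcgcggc
RPPH1: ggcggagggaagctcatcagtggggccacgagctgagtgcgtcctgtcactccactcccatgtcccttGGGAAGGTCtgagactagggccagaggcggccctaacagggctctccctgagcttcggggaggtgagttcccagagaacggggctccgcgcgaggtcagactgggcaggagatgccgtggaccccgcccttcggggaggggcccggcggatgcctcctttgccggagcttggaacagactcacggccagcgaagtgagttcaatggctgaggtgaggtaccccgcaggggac
Searched on the transcript strand only, the word was held by 78 of 12497 annotated genes with a transcript of 200 to 400 bases (0.624%). A match is a description of the letters and says nothing of function. Both RNAs were short and rich in G and C among the genes tested. RMRP was longer than 1.19% of them and RPPH1 longer than 1.99%. Their GC contents of 63.3% and 64.6% were above those of 93.9% and 96.0% of genes. The ranks of RPPH1 were taken from the ribozyme. The longer RNA to which its row corresponds has 638 bases and a GC content of 59.4%, and was not ranked.

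The row of RMRP carries an identifier (ENSG00000269900) that is not in the annotation used here, where the gene is ENSG00000277027, and it was placed by its symbol. The row of RPPH1 (ENSG00000259001) corresponds to a 638-base noncoding RNA on chromosome 14, 20343048 to 20343685, that contains the ribozyme ENSG00000277209. That longer span overlaps the first 71 bases of PARP2 on the opposite strand. The use of strand in counting is not stated in the sources used here, so reads in the overlap cannot be assigned to either gene. Apart from that longer RNA, no 50-base stretch of RMRP or of the RPPH1 ribozyme was found in another annotated gene. The longer RNA was counted as RPPH1 in this search, although it is annotated separately and covers all 333 bases of the ribozyme.

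RMRP, the RNA of RNase MRP, was the most read gene in inputs 1 and 2 and the second in input 3. Its normalized counts were 610404, 556724 and 321058 in inputs 1, 2 and 3, and 30198, 55729 and 8247 in the ORC1 IPs. All 3 IPs lay below all 3 inputs, with the highest IP in replicate 2 and the lowest in replicate 3. The means were 496062 ± 153916 in inputs and 31391 ± 23764 in IPs (SD, n = 3 each), 15.8-fold lower in the IPs. The log2 IP/input was −4.34, −3.32 and −5.28 in replicates 1, 2 and 3. In the limma fit across all genes its log2 fold change was −4.31 ± 1.56 (SE), which did not pass the adjusted threshold of 0.05. Leaving out ORC1 IP replicate 2 gave −4.92 ± 0.64, which passed. Limma without the intensity trend, on all 6 libraries, gave −4.31 ± 0.656 (adjusted p = 0.0216), which also passed.

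RPPH1, the RNA of RNase P, had normalized counts of 18964, 96087 and 54130 in the inputs and 532, 1168 and 265 in the IPs. Every IP lay below every input, although the inputs themselves were spread, with input 1 the lowest. The means were 56394 ± 38611 and 655 ± 464 (SD, n = 3 each), 86.1-fold lower in the IPs. The log2 IP/input was −5.15, −6.36 and −7.67 in replicates 1, 2 and 3. The fitted log2 fold change was −6.39 ± 0.68, past the threshold, and it passed in all 19 alternative fits, between −7.04 and −5.87. By this value RPPH1 was 5th and RMRP 13th from the lowest of the 16513 genes tested.

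**Figure D1:**
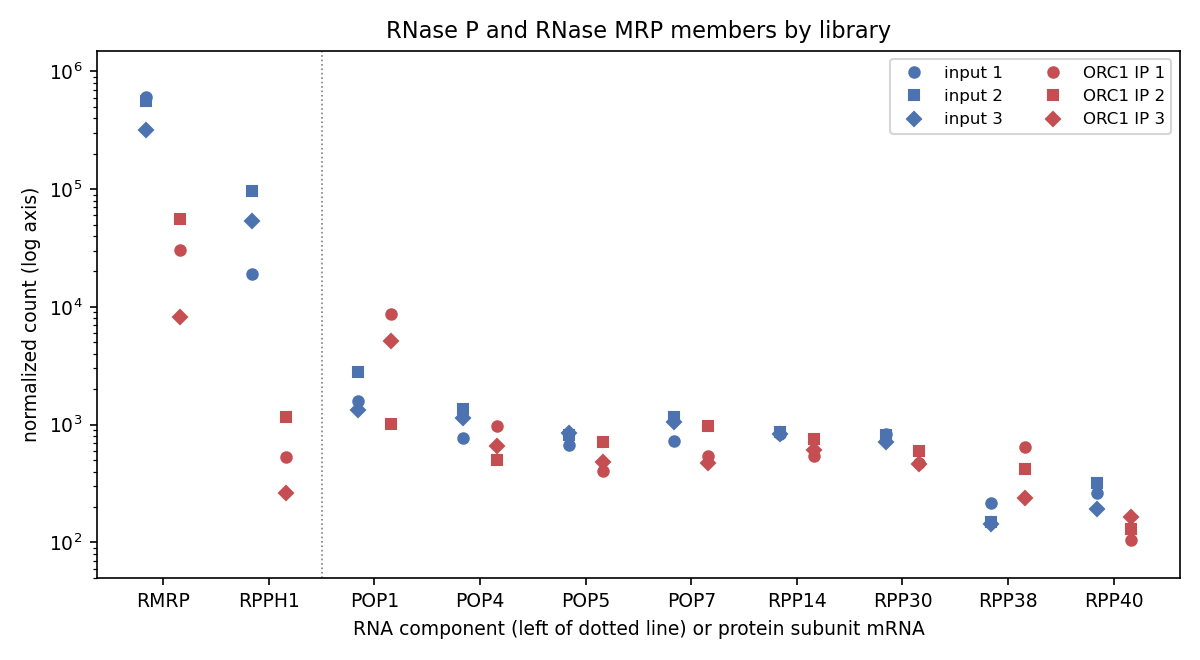
Normalized counts (log axis) of the 10 genes in each of the 6 libraries, inputs in blue and ORC1 IPs in red, with 1 point per library. RMRP and RPPH1 lie lower in all 3 IPs than in all 3 inputs, by 15.8 and 86.1-fold of the means, and most subunit mRNAs differ by far less.

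The weight of these RNAs in a library is easier to see as a share of its reads. RMRP took 3.35%, 2.58% and 1.67% of the reads on genes in the inputs and 0.100%, 0.382% and 0.0307% in the IPs. It was thus the 123rd, 10th and 527th most read gene in IPs 1, 2 and 3, and remained among the best covered RNAs of IP 2. RPPH1 took 0.104%, 0.445% and 0.281% in the inputs, as the 50th, 12th and 18th most read gene. In the IPs its share was 0.00176% (95% Wilson interval 0.00161 to 0.00193), 0.00800% (0.00766 to 0.00836) and 0.000989% (0.000891 to 0.00110), from 462, 2011 and 356 reads. The intervals of the IPs did not touch each other, so the IPs differed by more than counting error, which is all that these intervals cover. Together both RNAs took 3.46%, 3.02% and 1.95% of the reads in inputs and 0.102%, 0.390% and 0.0317% in IPs.

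**Figure D2:**
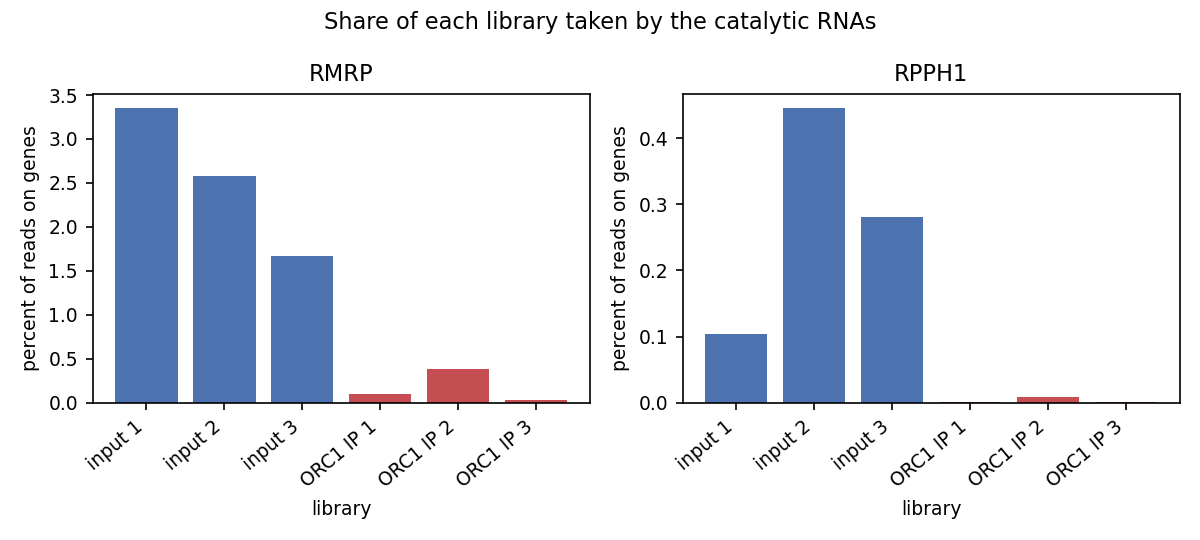
Percent of each library's reads on genes taken by RMRP (left) and RPPH1 (right), with 1 bar per library, inputs blue and ORC1 IPs red, and a separate vertical scale in each panel. RMRP takes 1.67 to 3.35% in inputs and at most 0.382% in IPs, and RPPH1 at least 0.104% in inputs and at most 0.008% in IPs.

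The ratio of the RNAs to each other also varied. RMRP had 32.2, 5.79 and 5.93 times the normalized count of RPPH1 in inputs 1, 2 and 3, and 56.8, 47.7 and 31.1 times in the IPs. The ranges overlapped, because input 1 held little RPPH1 and lay just above IP 3. Per kilobase of transcript, on the scale of normalized counts, RMRP stood at 1879023 ± 583015 and RPPH1 at 169350 ± 115949 in the inputs (SD, n = 3 each), without overlap. Were RPPH1 divided by the longer span of its row, its input level would be 88391 ± 60519 per kilobase.

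Among the 8 subunit mRNAs none passed the threshold in the limma fit, in which 1 was higher and 1 lower at an unadjusted p under 0.05. In that fit 3575 of all 16513 genes had such a p. edgeR on the recovered reads likewise called none, and DESeq2 called 1, RPP38, higher, as it did 1266 of all genes. Their log2 fold changes ran from −0.95 to 1.28 with a median of −0.59, beside a median of 0.01 over all 16513 genes tested, and 6 were negative and 2 positive. The sum of the 8 mRNAs was 5889, 8261 and 6250 normalized counts in inputs and 12432, 5113 and 8269 in IPs, so the groups overlapped. As a share of reads the sum stayed between 0.0324% and 0.0383% in inputs and between 0.0308% and 0.0412% in IPs. Both catalytic RNAs together thus had 107, 79.0 and 60.0 times the normalized count of the summed mRNAs in inputs, and 2.47, 11.1 and 1.03 times in IPs.

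POP1 is the largest protein subunit and wraps the RNA in both enzymes (ENSG00000104356, GRCh38 chromosome 8, 98117293 to 98159835, plus strand). It had normalized counts of 1583, 2801 and 1333 in inputs and 8744, 1017 and 5180 in IPs. IPs 1 and 3 lay above every input, whereas IP 2 lay below every input. The log2 IP/input was accordingly 2.47, −1.46 and 1.96. The fitted log2 fold change was 0.99 ± 0.67, not past the threshold. Leaving out ORC1 IP replicate 2 gave 1.90 ± 0.40, which passed. The start of POP1 lies 122 bases from that of RIDA on the opposite strand, which had 379, 134 and 223 normalized counts in inputs and 41.5, 260 and 95.4 in IPs. The groups of RIDA overlapped, with IP 2 above inputs 2 and 3, and its log2 fold change was −1.14 ± 0.61 (limma adjusted p = 0.302), or −1.82 when ORC1 IP replicate 2 was left out (0.0213).

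RPP38, an RNA-binding subunit that contacts a kink-turn-like element, was the other mRNA with a positive value (ENSG00000152464, chromosome 10, 15097180 to 15139818, plus strand). It had 215, 148 and 143 normalized counts in inputs and 649, 420 and 240 in IPs. All 3 IPs lay above all 3 inputs, although IP 3 exceeded input 1 only narrowly. The log2 IP/input was 1.59, 1.50 and 0.75, and the fitted value was 1.28 ± 0.42, not past the threshold. NMT2, which adds myristate to proteins, covers 37235 bases of the RPP38 span on the opposite strand. It had 721, 578 and 534 normalized counts in inputs and 2132, 863 and 1581 in IPs, again with every IP above every input. Its log2 fold change was 1.24 ± 0.39 (limma, Benjamini-Hochberg adjusted p = 0.0959), and 1.60 without ORC1 IP replicate 2 (adjusted p = 0.00522). Reads shared by the overlapping genes cannot be told apart without strand.

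RPP40, a subunit of the protein core, had the lowest fitted value of the mRNAs (ENSG00000124787, chromosome 6, 4994717 to 5004063, minus strand). It had 261, 320 and 192 normalized counts in inputs and 104, 130 and 163 in IPs, with every IP below every input. The log2 IP/input was −1.32, −1.29 and −0.23, and the fitted value was −0.95 ± 0.39, not past the threshold.

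RPP30 and RPP14, which partner POP5 and related subunits in the protein core, also had every IP below every input, by less. RPP30 (ENSG00000148688, chromosome 10, 90871952 to 90908553, plus strand) had 831, 818 and 707 normalized counts in inputs and 470, 598 and 462 in IPs, a log2 fold change of −0.63 ± 0.33. RPP14 (ENSG00000163684, chromosome 3, 58306245 to 58324695, plus strand) had 838, 859 and 838 in inputs and 543, 755 and 604 in IPs, a log2 fold change of −0.43 ± 0.33. RPP14 was the steadiest of all members among inputs (845 ± 12.2, SD, n = 3). In the annotation 42.2% of its 50-base stretches recur in other genes. HTD2 overlaps it by 13932 bases on the same strand and has no row in the table, so the count of RPP14 is uncertain.

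The values of POP4, POP5 and POP7 overlapped between the groups. POP4, which binds the catalytic RNA, had 771, 1347 and 1139 normalized counts in inputs and 975, 503 and 660 in IPs (log2 fold change −0.62 ± 0.38, ENSG00000105171, chromosome 19, 29606283 to 29617237, plus strand). POP5, a subunit of the protein core, had 670, 812 and 848 in inputs and 405, 708 and 486 in IPs (−0.57 ± 0.35, ENSG00000167272, chromosome 12, 120578764 to 120581402, minus strand). POP7, which pairs with RPP25, had 720, 1157 and 1051 in inputs and 541, 983 and 475 in IPs (−0.60 ± 0.38, ENSG00000172336, chromosome 7, 100706121 to 100707486, plus strand). In each case the highest IP exceeded the lowest input, in IP 1 for POP4 and in IP 2 for POP5 and POP7.

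**Figure D3:**
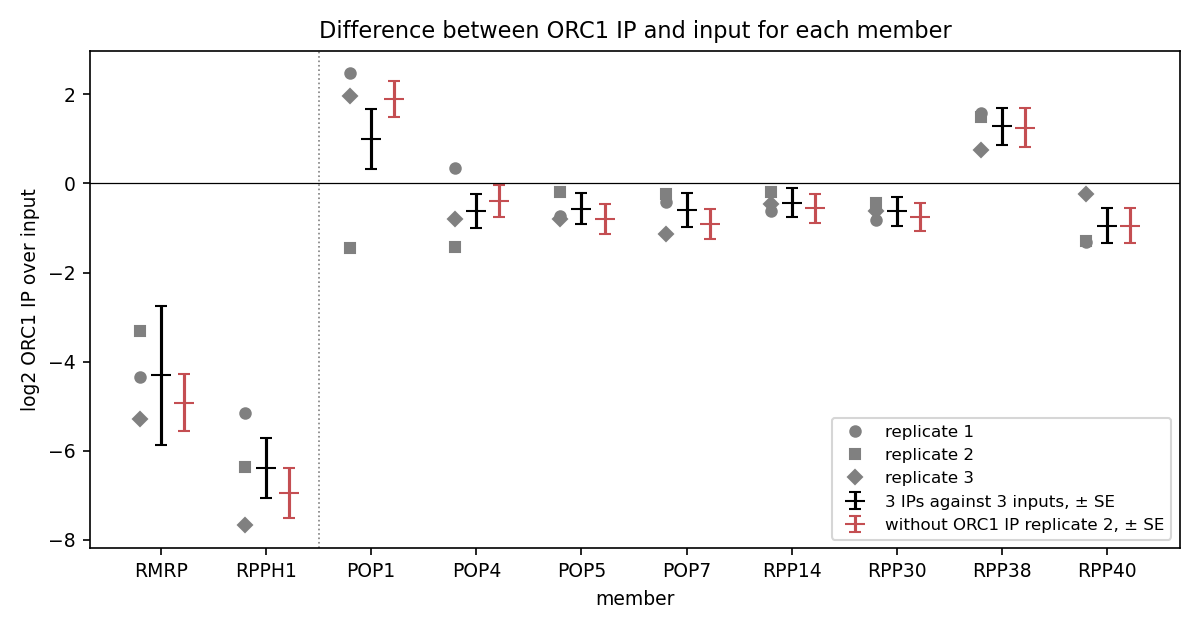
Log2 ORC1 IP over input for each of the 10 genes. Grey points are the 3 numbered replicates, black bars the fit to all 6 libraries (± SE) and red bars the fit without ORC1 IP replicate 2 (± SE). RMRP and RPPH1 lie below −3 in every replicate, while the replicates of POP1 range from −1.46 to 2.47.

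Read over all 10 genes, 1 (RPPH1) was called lower in the IPs, where 1.42% of the 16513 genes tested were called lower, and 0 were called higher, where 2.28% of genes were. At an unadjusted p under 0.05, limma had 3 lower and 1 higher, where 3575 of the 16513 genes passed in either direction. edgeR called 1 lower and 0 higher, beside 216 and 425 of all genes. DESeq2 called 2 lower and 1 higher, beside 718 and 1266 of all genes. Without ORC1 IP replicate 2, 2 (RMRP and RPPH1) were called lower beside 6.38% of all genes, and 1 (POP1) was called higher beside 11.9%. All IPs lay below all inputs in 5 of the 10 (RMRP, RPPH1, RPP14, RPP30 and RPP40) beside 13.5% of genes, and above in 1 (RPP38) beside 12.7%. Since the genes were chosen with this contrast in view, nothing is read from these counts. Of all calls 61.6% were higher with the deposited size factors and 47.5% with scaling to total counts, which moved the median of all genes from 0.01 to −0.19. None of the 10 genes changed sign under it or under any other alternative.

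The order of the subunit mRNAs by input level was set per kilobase of the longest annotated transcript, on the scale of normalized counts (mean ± SD, n = 3). POP7 was highest at 1148 ± 268, then POP5 at 715 ± 86.7, with no overlap between them. POP4 (425 ± 114), POP1 (402, from 281 to 591) and RPP30 (337 ± 29.3) followed, each overlapping the next. RPP40 (173 ± 43.1) lay below RPP30 without overlap, and overlapped RPP38 (110 ± 26.3), which in turn overlapped RPP14 (106 ± 1.53). The order depends on the transcript used: with the median transcript length POP4 led at 1786 ± 480 and RPP14 stood at 1057 ± 15.3. RMRP at 1879023 per kilobase lay far above every subunit mRNA under either length.

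The genes whose log2 levels over the 6 libraries were most like those of RMRP were ENSG00000203362 (Pearson r = 1.000), RAB36 (0.999), MTPN (0.998), RN7SL664P (0.993) and P2RX5-TAX1BP3 (0.989). Those most like RPPH1 were HIST1H4C (0.999) and RPL15P3, PPIL1, RBM3 and HIST1H4B (0.997 each). These are descriptions over 6 libraries that fall into inputs and IPs, and the lists shared no gene. PARP2, which makes poly(ADP-ribose) chains at DNA breaks and starts 208 bases from RPPH1 in the opposite direction, had 968, 667 and 542 normalized counts in inputs and 3726, 1351 and 2711 in IPs. All IPs lay above all inputs, opposite to RPPH1. PARP2 rose by a log2 fold change of 1.76 ± 0.43 (limma, Benjamini-Hochberg adjusted p = 0.0464). The call was lost in 7 of 19 alternatives, among them leaving out input 1 (adjusted p = 0.0540), input 2 (0.172), input 3 (0.299), IP 1 (0.108) or IP 3 (0.126). CCDC107, which starts 273 bases from RMRP, had 12.6 to 38.3 normalized counts over the 6 libraries.

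The other subunits that were listed, RPP21, RPP25 and RPP25L, gave 0 calls of 3 in limma, edgeR and DESeq2, with 2 lower at an unadjusted p under 0.05 in limma. Of all 16513 genes, 3575 had such a p in limma, in either direction. RPP25, the partner of POP7, had 192, 265 and 374 normalized counts in inputs and 142, 112 and 192 in IPs (log2 fold change −0.88 ± 0.40, limma adjusted p = 0.226). RPP25L, its close relative, had 673, 815 and 1198 in inputs and 268, 434 and 550 in IPs (−1.12 ± 0.39, limma adjusted p = 0.116). Every IP lay below every input for RPP25L, and narrowly for RPP25, as in 13.5% of all genes tested. RPP21 had only 8, 11 and 11 reads in inputs and 30, 112 and 5 in IPs, so no direction is given.

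Mitochondria carry a protein-only RNase P made of TRMT10C, HSD17B10 and PRORP, which offers a comparison without a catalytic RNA. Limma and edgeR called 0 of the 3, 1 was lower at an unadjusted p under 0.05 in limma, and DESeq2 called 1 (HSD17B10) lower. Of all 16513 genes, 3575 had such a p in limma, and DESeq2 called 718 lower. HSD17B10 had 1419, 2537 and 2354 normalized counts in inputs and 991, 517 and 1187 in IPs, and every IP lay below every input. Its log2 fold change was −1.27 ± 0.42 (limma adjusted p = 0.104), against −0.61 ± 0.57 for PRORP, the nuclease, and −0.07 ± 0.35 for TRMT10C, the methyltransferase. PRORP had only 15, 12 and 13 reads in inputs and 12, 12 and 16 in IPs. Its normalized counts in IPs also all lay below those in inputs, as in 13.5% of all genes tested.

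Of 16 mRNAs for later steps of tRNA maturation, 1 rose and 1 fell, where 2.28% and 1.42% of all genes did. The median log2 fold change of the 16 was 0.02. SSB encodes La, which binds the 3′ ends of new RNA polymerase III transcripts. It had 1134, 350 and 356 normalized counts in inputs and 5657, 1132 and 3336 in IPs, with IP 2 just below input 1. SSB rose by 2.41 ± 0.60 (limma adjusted p = 0.0472), a call lost in 7 of 19 alternatives. It was lost with total count scaling (0.0632), without the trend (0.094) and with a filter mean of at least 50 (0.0511). It was also lost without input 2 (0.171), input 3 (0.288), IP 1 (0.0895) or IP 3 (0.130). TSEN34, a catalytic subunit of the tRNA splicing endonuclease, had 2136, 2667 and 3129 in inputs and 866, 808 and 1147 in IPs. TSEN34 fell by 1.49 ± 0.36 on the log2 scale (limma adjusted p = 0.0434), a call lost in 9 of 19 alternatives, among them leaving out input 1 (0.0532), input 2 (0.181), input 3 (0.285), IP 1 (0.102) or IP 3 (0.0865). ELAC2, which cuts the 3′ trailer of precursor tRNAs, stood at −0.23 ± 0.63 (limma adjusted p = 0.872), and at 0.54 ± 0.38 without ORC1 IP replicate 2 (0.345).

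Of 10 mRNAs for factors that act around ITS1 in ribosomal RNA processing, the substrate of RNase MRP, limma, edgeR and DESeq2 called 0, and 0 in limma had an unadjusted p under 0.05. Their median log2 fold change was 0.39, and the replicate medians were 2.05, −1.58 and 0.95. Without ORC1 IP replicate 2, 6 of the 10 were called higher, beside 11.9% of all genes under the same setting (2.28% with all libraries), and the median was 1.06 beside 0.02 for all genes. PDCD11, a large ribosome assembly factor, had 5974, 20839 and 10022 normalized counts in inputs and 47016, 4409 and 32722 in IPs. Like POP1, it lay highest in IPs 1 and 3 and lowest in IP 2. Its log2 fold change was 0.81 ± 0.91, and 1.87 without ORC1 IP replicate 2 (limma adjusted p = 0.0206). EXOSC10, the nuclear exosome nuclease, had 2040, 2339 and 1546 in inputs and 9043, 1581 and 5487 in IPs (1.14 ± 0.57, and 1.86 without ORC1 IP replicate 2, limma adjusted p = 0.00375).

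Of 10 mRNAs for factors at type 3 promoters, which drive RMRP and RPPH1, 1 rose, where 2.28% of all genes did. The median log2 fold change of the 10 was 0.30. BDP1, a TFIIIB subunit, had 1831, 793 and 438 normalized counts in inputs and 8168, 4044 and 7443 in IPs, with every IP above every input. BDP1 rose by 2.86 ± 0.53 (limma adjusted p = 0.0170), a call lost without input 2 (0.0702), input 3 (0.173) or IP 3 (0.0696). SNAPC4 and SNAPC2, subunits of the complex that binds these promoters, had log2 fold changes of 0.99 (limma adjusted p = 0.221) and −0.97 (0.116). Without ORC1 IP replicate 2 SNAPC4 was at 1.37 (limma adjusted p = 0.0243).

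The other RNAs made from type 3 promoters that were tested had negative log2 fold changes too. Of 11 listed, 4 were in the table and 3 were tested, and 1 fell, where 1.42% of all genes did. RN7SK, the RNA that holds the elongation factor P-TEFb inactive, had 116897, 336588 and 238159 normalized counts in inputs and 20122, 78121 and 3986 in IPs. Every IP lay below every input, and as with RMRP the highest IP was replicate 2 and the lowest replicate 3. Its log2 fold change was −3.52 ± 1.37 (limma adjusted p = 0.158), and −4.56 without ORC1 IP replicate 2 (0.000998). RNY1, a Y RNA, fell by 2.88 ± 0.73 on the log2 scale (limma adjusted p = 0.0486) on 12, 31 and 27 reads in inputs and 1, 4 and 9 in IPs. That call was lost in 7 of 18 alternatives, among them total count scaling (0.0707) and leaving out input 2 (0.195), input 3 (0.288), IP 1 (0.106) or IP 3 (0.0715). RNU6-2, a U6 spliceosomal RNA gene with close copies, was at −1.75 ± 0.74 (limma adjusted p = 0.188). It had 10, 39 and 15 reads in inputs and 4, 21 and 5 in IPs, and its groups overlapped. RNU6ATAC, in the table but not tested, had 8, 9 and 5 reads in inputs and 0, 26 and 1 in IPs.

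A pair of other RNA-protein particles with an RNA polymerase III transcript were set beside RNase P and RNase MRP. In the signal recognition particle, which directs nascent proteins to the endoplasmic reticulum, all 3 RNA genes fell, where 1.42% of all genes did. The log2 fold changes were −6.91 for RN7SL1, −6.50 for RN7SL2 and −6.77 for RN7SL3 (limma adjusted p = 0.00113, 0.00406 and 0.000122). These genes are near-identical copies, so reads may be split among them. Limma, edgeR and DESeq2 called 0 of its 6 protein mRNAs, limma had 0 at an unadjusted p under 0.05, and their median was 0.22, or 0.81 without ORC1 IP replicate 2. SRP72 was at 0.98 ± 0.53, and at 1.50 without ORC1 IP replicate 2 (limma adjusted p = 0.0144). In the 7SK particle, RN7SK was at −3.52 as above, and the median of 7 protein mRNAs was −0.07, which turned to 0.32 without ORC1 IP replicate 2. Of the 7 mRNAs 1 rose, where 2.28% of all genes did. LARP7, which binds the 3′ end of 7SK RNA, had 719, 184 and 160 normalized counts in inputs and 5189, 1085 and 2084 in IPs. LARP7 rose by 3.03 ± 0.62 (limma adjusted p = 0.0247), a call lost in limma without the trend (0.0654) and without input 2 (0.0844), input 3 (0.197) or IP 3 (0.0792). HEXIM1, the inhibitory subunit, was at 1.13 ± 0.43 (limma adjusted p = 0.152).

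The median log2 fold change of the RNAs minus that of the protein mRNAs was −4.77 for RNase P and RNase MRP, −6.99 for the signal recognition particle and −3.44 for the 7SK particle. For RNase P and RNase MRP the RNA medians were −4.75, −4.84 and −6.47 in replicates 1, 2 and 3, and the mRNA medians were −0.52, −0.34 and −0.54. The RNA median thus lay below the mRNA median for each pair of same-numbered libraries. In the signal recognition particle the RNA medians were −7.44, −5.47 and −7.64 and the mRNA medians 0.27, 0.02 and 0.80. In the 7SK particle RN7SK was at −2.54, −2.11 and −5.90 and the mRNA medians were 0.67, −0.96 and 0.27, so the values lay closest in replicate 2. No test of the difference between particles was made. Over all pathway lists together, 61 of 69 listed genes were tested, 3 rose and 5 fell, where 2.28% and 1.42% of all genes did, and the median was 0.01. Without ORC1 IP replicate 2, 11 were called higher and 6 lower, where 11.9% and 6.38% of all genes were.

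**Figure D4:**
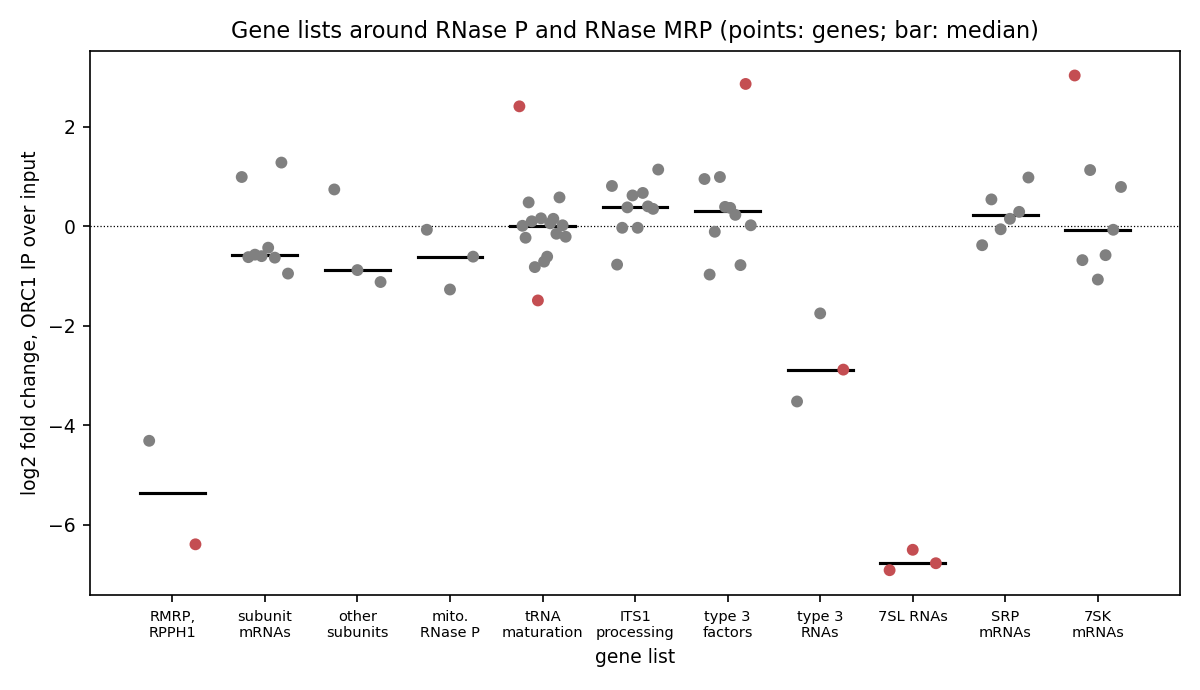
Log2 fold change of ORC1 IP over input for each tested gene of the lists, with 1 point per gene, red where called by limma (adjusted p under 0.05) and grey otherwise, and a bar at each list's median. The RNA lists (medians −5.35, −2.88 and −6.77) lie below the mRNA lists, whose medians run from −0.88 to 0.39.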

How the data were processed

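Native ORC1 RIP-seq was performed on nuclei of HCT116 cells, with 3 input and 3 ORC1 IP libraries. Per the methods and processing notes, the authors used Trimmomatic for trimming, STAR for alignment to hg19 (GRCh37), and featureCounts for counts per Ensembl gene after dropping GL contigs, and compared IP with input in DESeq2. The study describes ribo-depleted RNA and a stranded kit (TruSeq) for the RIP-seq libraries. Neither strand use in counting nor the handling of reads matching several genes is stated in those sources. The deposited signal is the read count of a gene scaled by a size factor of its library, here called normalized count. Whole reads were recovered for 100% of values of all 23013 genes within a tolerance of 0.001. The deposited table also holds the authors' log2 fold changes with standard errors, a Wald score, p-values and adjusted p-values, none of which was used.

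Genes whose mean normalized count was at least 10 (16513) were put on the scale log2(normalized count + 1) and tested with limma 3.58.1 (intensity trend) in R 4.3.3, with Benjamini-Hochberg adjustment over all genes and a threshold of 0.05. Fold changes are on this scale, which understates low genes. Alternatives were other scalings, pseudocounts, filters, no trend, edgeR 4.0.16 and DESeq2 1.42.0 on recovered reads, a replicate block and leaving out each library. The span of the RPPH1 row as a length was added after seeing the data. Leaving out each library was planned, and giving the pathway lists and members without ORC1 IP replicate 2 was decided after that library was seen to stand apart. Only the main limma fit was tried on simulated counts, and these held no outlying library. The trial therefore does not cover the other fits or the effect of ORC1 IP replicate 2. All 10 members passed the filter.

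Same-numbered input and IP did not deviate together in replicates 1 and 2 (correlations of deviations −0.322, −0.24 and 0.215), whereas input 2 deviated with IP 1 (0.497), so the numbers were not treated as pairs in the tests. Log2 ratios per replicate follow the labelled numbers. Lengths, GC and coordinates come from GENCODE v44 on GRCh38, matched by identifier (97.3% of tested genes), and no coordinates were converted from the authors' build. Wilson intervals (95%) cover counting error only, as reads are not independent molecules. Named genes were all members, genes of the lists (called ones first, then those with the largest fold changes), genes overlapping a member or starting within 1000 bases of one, and the 5 genes most like RMRP and RPPH1. The members and lists were chosen with earlier results of these data known.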

Additional observations from a re-analysis of the deposited data

How the results depend on the processing

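In the limma fit 376 genes were called higher and 234 lower in ORC1 IPs, with 1 member and 8 genes of the pathway lists called. Scaling to total counts gave 87 higher, 96 lower, 2 members and 5 list genes, and limma without the trend gave 143, 96, 2 and 4. DESeq2 gave 1266 higher, 718 lower and 3 members. Leaving out 1 library gave 6 to 1965 higher, 23 to 1053 lower, 1 to 3 members and 3 to 17 list genes. The counts higher and lower were 48 and 39 without input 2, 6 and 23 without input 3, 196 and 119 without IP 1, 1965 and 1053 without IP 2 and 24 and 23 without IP 3. Fewer libraries were fitted in each of these, and the cause was not tested otherwise.

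With the replicate number as a block, limma called 624 genes in all beside 610 without it. DESeq2 with the replicate block gave 906 higher, 484 lower and 2 members. Under the limma block RPPH1 stayed called, RMRP (−4.31) did not pass, and TSEN34 was lost (adjusted p = 0.069, and 0.0657 in edgeR with the block). RMRP was called in 5 of 19 alternatives, which were total count scaling (−4.53), limma without the trend (−4.31), DESeq2 (−3.97), DESeq2 with the block (−4.33) and without IP 2 (−4.92). Its range over all 19 was −4.92 to −3.54. RPP38 was called in DESeq2 alone (1.37), and POP1 without IP 2 alone (0.34 to 1.90 over all alternatives).

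The direction reversed for ELAC2 (0.03 in edgeR, 0.00 in DESeq2, −0.62 to 0.54 leaving out 1 library, positive without IP 2), for TRMT10C (−0.24 to 0.14 leaving out 1 library, 0.14 without input 1 and 0.05 without IP 1) and for RPP21 (−0.05 to 1.86 leaving out 1 library, negative without IP 2). The input level of RPPH1 per kilobase was 88391 with the 638-base span of its row. Depth limits RPP21, PRORP, RNY1 and RNU6-2, which had few reads in some libraries.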
